A study of Homo sapiens with 12 samples.

Results

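The zinc finger genes named ZNF, ZSCAN or ZKSCAN with a number were examined in tumours grown from Hep3B, a human hepatocellular carcinoma line, with and without bufotalin, a cardiac glycoside of toad venom. Members were all genes whose name in the authors' mRNA table begins with one of these prefixes and a digit, which gave 119 of 4988 listed genes, 49 on chromosome 19 and 70 on other chromosomes. The samples were 3 control and 3 bufotalin total RNA libraries, labelled xenograft, cell line Hep3B and HCC, while the title of the series speaks of treated cells. Every group shared the one cell line. Not given in the sources used here are the dose, route and length of treatment, the host animal and what the controls received. No label says that replicates came from separate animals, so p-values measure only the spread between these libraries, which may be technical.

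Values are FPKM (fragments scaled by gene length and by sequencing depth), so levels of different genes are compared per length. The table holds only genes that the authors had selected as different on these same libraries, by a rule not given in the sources used here. A call on any listed gene is therefore no independent evidence, and a zinc finger gene outside the table was not analysed here. The selection was also uneven. Among the 4250 tested genes given a ratio of means, 43.9% of those higher in bufotalin differed by less than 1.5-fold, against 1.37% of those lower, so small rises were listed and small falls hardly at all. The depth behind the values is unknown, and each library summed to between 102677 and 121337 FPKM over the listed genes.

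C2H2 zinc finger proteins form the largest family of human transcription factors. Each finger is a short fold held by a zinc ion that contacts a few bases, and arrays of fingers read longer sequences. Many carry a KRAB box, which recruits the corepressor TRIM28 and through it histone methylation and heterochromatin proteins, often at transposon-derived sequence. Others carry a SCAN box, which lets proteins pair. Much of the KRAB group lies in clusters on chromosome 19 that grew by tandem duplication. Neighbours in a cluster can therefore share sequence, and how the authors' counting split reads between close copies is not given in the sources used here, so values of single cluster genes are uncertain.

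On chromosome 19 most listed zinc finger genes were higher in bufotalin, and on the other chromosomes more were lower than higher. Of 43 tested chromosome 19 members, 30 rose, 8 fell and 5 were not called, with a median log2 fold change of 0.52. Of 66 tested members elsewhere, 23 rose, 35 fell and 8 were not called, with a median of -0.65. The test was limma on log2(FPKM + 1), run where the mean reached 0.5 FPKM, with Benjamini-Hochberg adjustment over all 4273 tested genes and a threshold of 0.05. It called 53 members higher and 43 lower of 109 tested, while 93.2% of all tested genes were called, 44.3% higher and 48.8% lower. The members' share of calls thus shows nothing beyond the selection of the table, and only the direction differs between the chromosomes.

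The other listed genes of chromosome 19 were more evenly divided between rises and falls. Among 277 other tested genes of chromosome 19, 49.8% rose and 42.2% fell, with a median log2 fold change of 0.31, against 69.8% and 18.6% of the chromosome 19 members. The 3887 remaining genes on other chromosomes had a median of -0.28, and all tested genes 0.13. The last value lies near 0 between many rises and falls and was not stable in sign: it was -0.17, -0.059 and -0.27 without bufotalin replicate 1, 2 and 3, and -0.14 with no FPKM minimum. Likewise the 3887 genes held 1932 positive and 1955 negative log2 fold changes (quartiles -1.02 and 0.57), and the 277 genes held 158 and 119. Medians of such divided sets are therefore not the typical change of a gene. No test of these differences between sets was made, because genes are not replicates and the table was selected.

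The direction of calls in the table went with the level of a gene, so members were also set beside genes of like level. Among all genes with a mean of 0.5 to 10 FPKM, 29.1% rose and 66.6% fell. In that range 27 of 40 chromosome 19 members rose and 8 fell, whereas 15 of 52 members elsewhere rose and 33 fell. The members elsewhere, 28.8% higher and 63.5% lower, were thus near the shares of all genes of like level. The other chromosome 19 genes of that range rose in 54 of 140 cases and fell in 82. At 10 FPKM or more 59.4% of all genes rose and 31.2% fell. Of the 17 members at that level, on any chromosome, 11 rose and 2 fell. With calls limited to means at least 2-fold apart, a limit added after the values were seen, 12 chromosome 19 members rose and 7 fell, and elsewhere 3 rose and 30 fell. That limit left 10.5% of all tested genes higher and 38.3% lower.

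The 3 libraries of a group gave like pictures. The median FPKM of the tested chromosome 19 members was 2.83, 3.53 and 3.11 in control replicates 1, 2 and 3, and 4.09, 5.61 and 5.39 in bufotalin replicates 1, 2 and 3. That of the members elsewhere was 5.41, 5.12 and 5.72 in control and 3.44, 3.21 and 4.12 in bufotalin. In neither set did the medians of the groups overlap, and the sets moved in opposite directions. Summed over all listed members, including those too low to test, chromosome 19 genes gave 161 to 172 FPKM in control and 245 to 278 FPKM in bufotalin. The members elsewhere gave 463 to 493 FPKM in control and 478 to 501 FPKM in bufotalin, where the groups overlapped.

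Scaling moved these numbers, and the balance of calls on the other chromosomes turned under quantile normalization, to 25 higher and 22 lower. After scaling the libraries to equal medians, which moved the median of all genes from 0.13 to 0.31, chromosome 19 members had 0.67 and the others -0.54. Relative to the median of all genes these are 0.37 and -0.85, against 0.38 and -0.78 without scaling. The relative values moved more under other settings, to 0.93 and -0.11 under quantile normalization and to 0.64 and -0.45 with no FPKM minimum. Without bufotalin replicate 1, 2 and 3 they were 0.70, 0.57 and 0.71 on chromosome 19, and -0.42, -0.59 and -0.41 on the others. The members' own medians there were 0.53, 0.51 and 0.44, and -0.59, -0.65 and -0.68. Most of that move thus came from the median of all genes, which was not stable in sign. Under quantile normalization the medians were 0.99 and -0.054, and the share of higher genes among calls was 97.1% against 78.9% on chromosome 19 and 53.2% against 39.7% elsewhere. Under quantile normalization 23 members were called lower in place of 43, with 1 in place of 8 on chromosome 19.

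**Figure D1:**
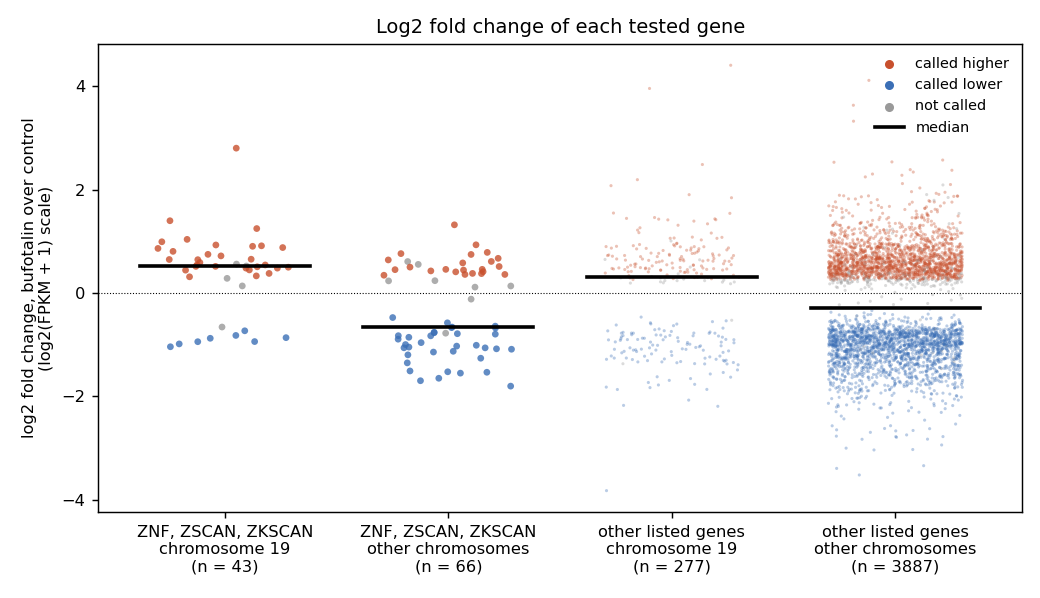
Log2 fold change of bufotalin over control, on the log2(FPKM + 1) scale, for each tested gene (1 point a gene) in 4 sets, with colours for the limma call and a black line at the median. The chromosome 19 zinc finger genes lie mostly above 0 (median 0.52) and those elsewhere mostly below (median -0.65), and few genes of any set lie just below 0, where the authors' selection listed hardly any.

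The largest rise was that of ZNF114 (chromosome 19, 48270081 to 48287608, GRCh38), a KRAB zinc finger gene. It had 2.16, 1.77 and 0.752 FPKM in control replicates 1, 2 and 3, and 19.98, 13.6 and 16.1 FPKM in bufotalin replicates 1, 2 and 3. The lowest treated value was thus far above the highest control, and the mean rose 10.6-fold (log2 fold change 2.80, SE 0.23, adjusted p = 8.76e-06 by limma). ZNF665, a KRAB gene of the distal long arm, was almost silent in control, at 0.183, 0.428 and 0.327 FPKM, and had 2.97, 2.37 and 2.08 FPKM in bufotalin (7.90-fold, log2 fold change 1.40, SE 0.13). These 2 were the only members called higher by more than 3-fold in mean FPKM.

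ZNF622, on chromosome 5, was the largest rise outside chromosome 19 and had the highest mean FPKM of all members in bufotalin, though ZNF598 was higher in bufotalin replicate 1. It encodes a cytoplasmic factor that helps mature the large ribosomal subunit, not a KRAB repressor. Its values were 19.8, 20.0 and 13.9 FPKM in control and 42.4, 51.4 and 43.5 FPKM in bufotalin, without overlap (2.56-fold, log2 fold change 1.32, SE 0.15). ZNF607 rose from 3.37 ± 0.191 to 9.43 ± 1.24 FPKM (mean ± SD, n = 3 libraries, here and below) and ZNF776 from 2.86 ± 0.125 to 6.94 ± 0.687 FPKM, both KRAB genes of the long arm of chromosome 19. In ZNF776 the highest control, 2.95 FPKM, lay well under the lowest treated library, 6.21 FPKM.

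The remaining members of the 10 largest rises were ZNF480, ZNF165, ZNF20, ZNF616 and ZNF600, with log2 fold changes of 0.90 to 0.99. ZNF165, on chromosome 6, is a SCAN zinc finger gene best known from testis and tumours, and rose from 2.06 ± 0.0745 to 4.86 ± 0.331 FPKM. ZNF616 rose from 6.46 ± 0.429 to 13.1 ± 1.46 FPKM and ZNF20 from 1.87 ± 0.456 to 4.52 ± 1.29 FPKM. Of the 10 largest rises, 8 lay on chromosome 19, and all 10 stayed called in every alternative run.

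None of the 10 largest falls lay on chromosome 19. ZSCAN30 (chromosome 18, 35251058 to 35290245), a SCAN gene, had 3.56, 4.25 and 3.59 FPKM in control and 0.385, 0.365 and 0.374 FPKM in bufotalin. The treated libraries were nearly equal, and the mean was 10.2-fold lower (log2 fold change -1.80, SE 0.11, adjusted p = 1.47e-06 by limma). Its locus overlaps that of ZNF397, another SCAN gene, which fell from 4.91 ± 1.28 to 1.79 ± 0.222 FPKM, a call lost under quantile normalization. Whether the counting used strand was not given in the sources used here, so the reads of these 2 genes cannot be told apart with certainty. The next listed member along the chromosome, ZNF24, is also a SCAN gene and rose, from 17.7 ± 1.07 to 23.0 ± 1.95 FPKM. ZNF396, beyond it, was too low to test, at 0.412 to 0.464 FPKM in control and 0.102 to 0.118 FPKM in bufotalin.

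ZNF385A, which encodes an RNA-binding partner of p53, had 15.4, 12.8 and 9.34 FPKM in control and 5.07, 2.11 and 2.64 FPKM in bufotalin (3.83-fold lower, log2 fold change -1.70, SE 0.27). ZNF362 fell from 8.14 ± 1.71 to 1.89 ± 0.332 FPKM. ZNF76 encodes the close relative of ZNF143, an activator of small nuclear RNA and other promoters, and fell from 5.99 ± 0.606 to 1.39 ± 0.251 FPKM. ZNF143 itself went the other way, with 20.2, 12.4 and 12.2 FPKM in control and 22.9, 25.4 and 28.0 FPKM in bufotalin (1.70-fold, log2 fold change 0.76, SE 0.19). This pair of related activators therefore changed in opposite directions, each without overlap between groups.

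ZNF514 fell from 5.27 ± 0.386 to 1.17 ± 0.261 FPKM, and ZNF862 from 3.33 ± 0.800 to 0.489 ± 0.0601 FPKM. ZNF74, a KRAB gene of chromosome 22, fell from 3.58 ± 0.298 to 0.610 ± 0.0945 FPKM, with no treated library above 0.714 FPKM. ZNF512B, ZNF449 (a SCAN gene of the X chromosome) and ZNF777 (a KRAB gene of chromosome 7) completed the 10, with log2 fold changes of -1.35, -1.26 and -1.20. Under quantile normalization the 10 largest falls stayed called but shrank, to values between -0.48 for ZNF777 and -1.37 for ZNF385A.

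**Figure D2:**
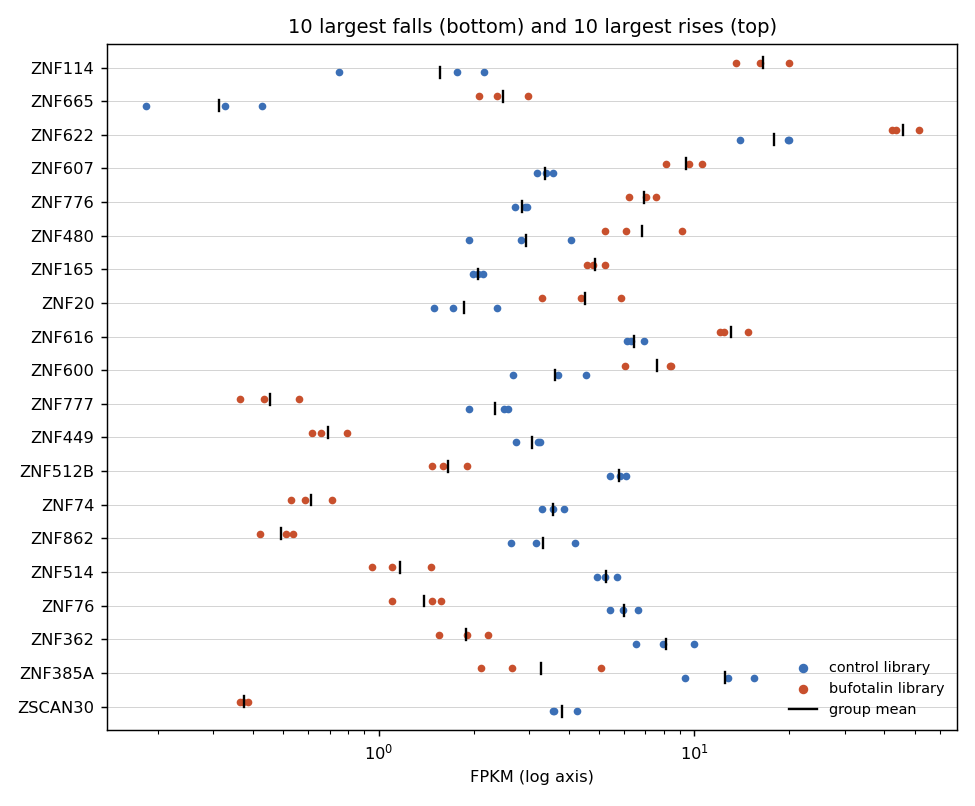
FPKM (log axis) of the 10 largest falls and the 10 largest rises among the zinc finger genes, with 1 point a library (blue control, orange bufotalin) and black ticks at group means. Only genes whose groups do not overlap could be chosen, so in all 20 the 3 libraries of one group lie to one side of the other 3. The largest ratios of group means are in ZNF114, ZSCAN30 and ZNF665.

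Start-site sequence was set beside the direction of the calls. RefSeq windows on GRCh38.p14, from 250 bases before to 50 bases after a gene's start, were found for 91 of the 119 members. The 28 members without a window include ZNF114 and ZNF665, the 2 largest rises, whose start sites were therefore not examined. The stretches of 150 bases before the start are shown for 3 of the largest rises (ZNF20, ZNF776 and ZNF622) and 2 of the largest falls (ZSCAN30 and ZNF862) as examples of the sequence behind the counts of matches. They lie at chr19:12140351-12140500 on the minus strand, chr19:57746665-57746814 on the plus strand, chr5:16465801-16465950 on the minus strand, chr18:35290230-35290379 on the minus strand and chr7:149838225-149838374 on the plus strand. Each is written 5′ to 3′ along the gene, with matches in capitals, on either strand, to GGGCGG (Sp and KLF factors), CCGGAAG (ETS factors), CCAAT (bound by NF-Y) or TATAAA (the TATA box).
ZNF20: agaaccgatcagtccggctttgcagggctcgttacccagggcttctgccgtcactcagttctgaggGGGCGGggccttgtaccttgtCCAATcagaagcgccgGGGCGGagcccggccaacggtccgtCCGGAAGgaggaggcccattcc
ZNF776: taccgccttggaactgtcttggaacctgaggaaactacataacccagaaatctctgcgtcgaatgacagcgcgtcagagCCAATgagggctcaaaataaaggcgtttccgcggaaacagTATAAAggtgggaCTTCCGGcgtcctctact
ZNF622: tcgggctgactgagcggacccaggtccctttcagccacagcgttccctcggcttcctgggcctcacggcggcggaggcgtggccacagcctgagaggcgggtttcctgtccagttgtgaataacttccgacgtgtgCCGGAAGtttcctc
ZSCAN30: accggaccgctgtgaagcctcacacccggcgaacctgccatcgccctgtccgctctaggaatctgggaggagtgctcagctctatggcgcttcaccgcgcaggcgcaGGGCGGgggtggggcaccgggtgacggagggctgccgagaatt
ZNF862: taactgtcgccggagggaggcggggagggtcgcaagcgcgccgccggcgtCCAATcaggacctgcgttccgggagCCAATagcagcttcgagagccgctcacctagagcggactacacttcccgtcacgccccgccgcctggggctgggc
The 3 rising genes were chosen for display after the matches were seen, because they hold CCGGAAG, the core of sites for ETS factors, within the last 22 bases before the start. ZNF607 and ZNF616, also among the largest rises, do not hold it in the same stretch, nor do the 2 falling genes shown.

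Over the whole windows, CCGGAAG on either strand was found in 22 of 41 members called higher and 11 of 30 called lower. It was in 44.0% of all 91 members with a window, in 16.6% of 3725 other genes of the mRNA table and in 10.3% of all 35116 windows of the reference. Among the other genes of the table it was in 21.9% of those called higher and 14.6% of those called lower, so the order of the directions was the same there. GGGCGG, a core of Sp and KLF sites, was in 22 of 41 higher and 23 of 30 lower members, in 70.2% of the other genes of the table and in 45.0% of all windows. CCAAT, bound by NF-Y, was in 18 of 41 and 14 of 30, in 34.98% of the other genes and in 34.6% of all windows. TATAAA was in 2 of 41 and 1 of 30, in 5.85% of the other genes and 11.5% of all windows. CACGTG, the E-box, was in 3 of 41 and 0 of 30, in 11.2% of the other genes and 7.26% of all windows. These motifs do not contain one another. They are matches of letters, with no measure of binding, and the shares were not tested.

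Along chromosome 19 the listed members fell into 16 groups when neighbours at most 1 Mb apart were joined, and 3 groups held at least 5. The first of these runs from ZNF404 to ZNF225 (43872363 to 44134822) and holds 8 members. All 7 tested members rose, with log2 fold changes of 0.48 to 0.86, and no other gene of the table lies in it. ZNF230 had 2.83, 2.26 and 2.95 FPKM in control and 4.08, 4.11 and 4.36 FPKM in bufotalin (1.56-fold, log2 fold change 0.50, SE 0.12). ZNF224, a KRAB repressor first described at the aldolase A promoter, rose from 5.35 ± 0.310 to 8.73 ± 2.25 FPKM. ZNF225 and ZNF222 rose as well, by 0.48 and 0.65 on the log2 scale.

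ZNF155 and ZNF45, with the largest changes of this run, were among its least certain members. ZNF155 had 2.64, 0.900 and 1.58 FPKM in control and 4.38, 2.11 and 5.42 FPKM in bufotalin, so that its groups overlapped (log2 fold change 0.86, SE 0.32, adjusted p = 0.0343 by limma). ZNF45 had 2.92, 4.32 and 4.70 FPKM in control and 4.85, 5.86 and 10.5 FPKM in bufotalin, where replicate 3 carried much of the difference (0.65, SE 0.26). ZNF155 kept its call only when control replicate 1 or bufotalin replicate 2 was the library left out, and ZNF45 only for control replicate 3 or bufotalin replicate 1. ZNF221 (0.54, SE 0.21), whose groups also overlapped, kept it only for control replicate 1 or bufotalin replicate 1. ZNF404 was too low to test, at 0 to 0.0574 FPKM in control and 0.160 to 0.323 FPKM in bufotalin.

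The second run, from ZNF350 to ZNF331 (51964340 to 53580269), holds 9 members. Of 7 tested, 6 rose and none fell, with log2 fold changes of 0.72 to 1.40. ZNF665 and ZNF480 changed most, and ZNF480 had 1.93, 4.06 and 2.83 FPKM in control and 5.23, 6.07 and 9.15 FPKM in bufotalin, without overlap (0.99, SE 0.23). ZNF468 was the most abundant, at 13.3 ± 2.49 in control and 22.7 ± 1.39 FPKM in bufotalin, and ZNF350, a KRAB partner of BRCA1, rose from 3.64 ± 0.213 to 6.65 ± 0.590 FPKM. ZNF331, an imprinted gene, had 0.52 without passing the test (adjusted p = 0.0630 by limma), since control replicate 3, at 10.3 FPKM, lay above bufotalin replicate 3, at 8.11 FPKM. ZNF347 was listed at 0 in control replicates 1 and 3 and at 0.229 to 0.414 FPKM in bufotalin. The readthrough gene ZNF816-ZNF321P was listed at 0 in 5 libraries and at 0.835 FPKM in control replicate 3. The one other listed gene in the run, ERVV-2, was called higher too.

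The third run, from ZNF460 to ZNF324 (57280051 to 58475436) near the end of the long arm, was mixed. Of 9 tested members 6 rose and 2 fell, and ZNF749 was not called (0.14). ZNF772 fell from 2.36 ± 0.504 to 0.739 ± 0.163 FPKM (log2 fold change -0.94, SE 0.14). ZNF134, the next listed member, rose from 3.99 ± 0.117 to 6.13 ± 0.820 FPKM. ZNF606 fell from 2.11 ± 0.476 to 0.611 ± 0.127 FPKM. Both falls lost their calls under quantile normalization, where ZNF772 had -0.20. ZNF776, with the largest change of this run, lies between those 2 falling genes.

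The other 23 listed members of chromosome 19 stood alone or in groups of up to 4. Here ZNF114, ZNF607, ZNF20, ZNF787 and ZNF431 rose by 0.81 to 2.80 on the log2 scale, with ZNF787 at 9.72 ± 0.960 in control and 18.7 ± 0.915 FPKM in bufotalin. The falls of this group were ZNF627, ZNF333, ZNF429, ZNF546, ZNF846 and ZNF526, all between -1.04 and -0.73, and none of them was called under quantile normalization except ZNF627. On the stretch of ZNF430, ZNF431, ZNF429 and ZNF100 (21020634 to 21767579), ZNF431 rose from 2.68 ± 0.420 to 5.54 ± 1.52 FPKM and ZNF429 fell from 2.65 ± 0.740 to 0.967 ± 0.173 FPKM. ZNF431 and ZNF429, neighbours among the listed members only, thus changed in opposite directions.

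**Figure D3:**
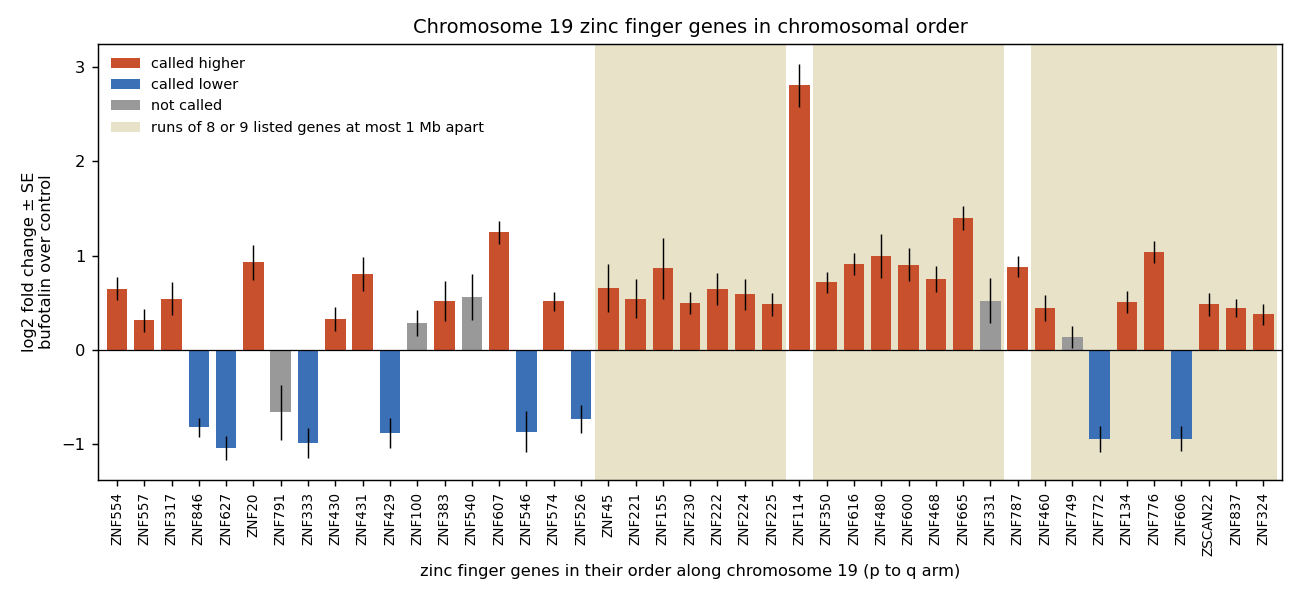
Log2 fold change of bufotalin over control with its SE for the 43 tested zinc finger genes of chromosome 19, in their order along the chromosome, with bars coloured by the limma call and shading for the 3 runs of 8 or 9 listed genes. Bars in the first 2 shaded runs all point up, and the falls lie before them or in the last run.

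**Figure D4:**
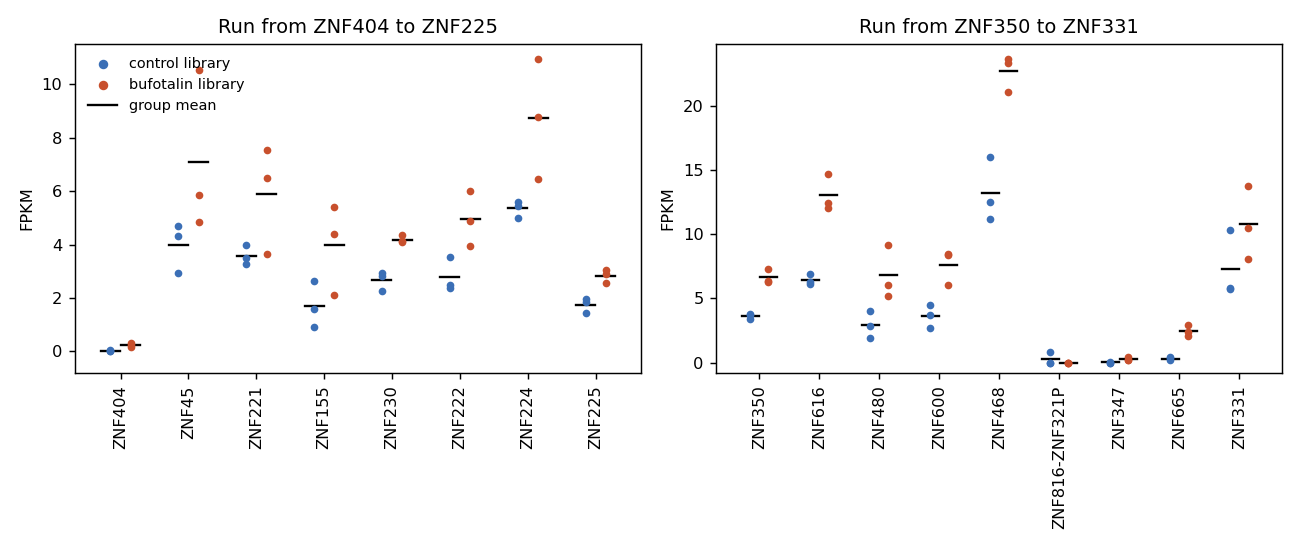
FPKM of every listed zinc finger gene in the first 2 runs, with 1 point a library (blue control, orange bufotalin) and black lines at group means. The treated means are higher in every gene except ZNF816-ZNF321P, while single libraries of ZNF221, ZNF155 and ZNF331 overlap between groups.

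Away from chromosome 19 the members were spread over many chromosomes. Over all tested genes 44.3% were called higher and 48.8% lower, and at 0.5 to 10 FPKM 29.1% and 66.6%. Each chromosome named below had at most 6 tested members, so its counts describe those genes only and were not tested against these shares. On chromosome 3, 5 of 6 tested members fell and none rose. Among them were ZNF717, from 6.11 ± 0.306 to 2.55 ± 0.463 FPKM, and ZNF619 and ZNF621, neighbours among the listed members (-0.83 and -0.96). Another was ZNF445, which encodes a KRAB protein that protects genomic imprints, from 5.20 ± 1.09 to 3.15 ± 0.621 FPKM. Under quantile normalization ZNF619, ZNF445 and ZNF501 lost their calls, 3 of these 5 falls. ZNF197 was the exception there, with 0.14 and no call. On chromosome 18, 4 of 6 fell and 2 rose, and on chromosome 8, 3 of 4 fell and 1 rose. On chromosome 1, 4 of 6 rose and 2 fell, and on chromosomes 6 and 7 rises and falls were 3 and 2, and 2 and 3.

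Of the 6 ZSCAN and ZKSCAN genes, which carry a SCAN box, 4 rose and 2 fell, beside 44.3% and 48.8% of all tested genes. ZSCAN16 and ZSCAN12, close together on chromosome 6, rose from 2.03 ± 0.143 to 3.77 ± 0.813 FPKM and from 5.94 ± 0.429 to 8.02 ± 0.491 FPKM. ZSCAN22 rose by 0.48 and ZKSCAN2 by 0.38 on the log2 scale, the latter call being lost without control replicate 1 or bufotalin replicate 3. ZSCAN30 fell, as did ZSCAN32, from 7.03 ± 0.529 to 3.02 ± 0.0622 FPKM. The groups did not overlap in any of these 6 genes, nor did they in 92.4% of all listed genes.

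The most abundant members were mostly genes of RNA or chromatin biology outside the KRAB group. ZNF598, the ubiquitin ligase that marks collided ribosomes, had 24.7, 23.2 and 25.5 FPKM in control and 52.6, 44.5 and 23.1 FPKM in bufotalin. Treated replicate 3 thus lay at the control level, and the gene was not called (log2 fold change 0.61, SE 0.27, adjusted p = 0.0594 by limma), though it was without that library (0.96), with equal medians (0.79, adjusted p = 0.0189) and by limma without trend (adjusted p = 0.0455). ZNF593, of ribosome assembly, rose from 25.5 ± 3.97 to 39.8 ± 8.35 FPKM. With ZNF622 and ZNF385A these make up the 4 listed genes of an RNA and ribosome list of 11. Of the 4, 2 rose, 1 fell and 1 was not called, where 44.3% of all tested genes rose and 48.8% fell.

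ZNF644, a partner of the histone methyltransferases EHMT1 and EHMT2, rose from 23.3 ± 4.82 to 31.0 ± 0.812 FPKM, a call that did not survive leaving out control replicate 1, control replicate 2 or bufotalin replicate 1, nor quantile normalization (0.28). ZNF451, a SUMO ligase, had 26.8 ± 2.80 in control and 24.7 ± 3.55 FPKM in bufotalin and was not called (-0.12, or 0.065 after scaling to equal medians). Levels were otherwise low, with a median over all 119 members of 3.86 FPKM, against 7.72 FPKM over the whole table.

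Of 29 zinc finger genes listed as activators, developmental or cancer-linked factors, 12 were in the table and 11 were tested. Of these 6 were higher, 4 lower and 1 not called, with a median log2 fold change of 0.36, beside 44.3% higher and 48.8% lower over all tested genes. Besides ZNF143 and ZNF76, ZNF652, a repressor, fell to 7.21 ± 0.537 FPKM in bufotalin (log2 fold change -1.05). ZNF395, known for induction by hypoxia, fell from 16.3 ± 1.38 to 8.32 ± 1.14 FPKM, and ZNF521, a factor of progenitor cells, from 0.908 ± 0.123 to 0.192 ± 0.0198 FPKM. The ZNF521 fall was not called under quantile normalization (-0.12). ZNF281, a factor of pluripotent cells and of epithelial-mesenchymal transition, rose from 8.68 ± 0.607 to 12.9 ± 2.56 FPKM. From a list of 16 KRAB genes known for binding transposons, imprints or heterochromatin only 2 were in the table, ZNF10, which rose by 0.67, and ZNF445, which fell by 0.58 on the log2 scale.

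The protein partners through which KRAB zinc finger proteins repress were divided, as were all tested genes of the table (44.3% higher and 48.8% lower). Of 28 listed symbols, which include 2 for the gene TASOR, 7 were in the table. Of these 2 rose, 3 fell and 2 were not called, with a median log2 fold change of 0.08. TRIM28, the corepressor that binds the KRAB box, had 80.7, 90.7 and 95.4 FPKM in control and 131, 135 and 122 FPKM in bufotalin (0.54, SE 0.11). ATF7IP, which stabilises the methyltransferase SETDB1, rose from 9.22 ± 0.509 to 14.5 ± 0.557 FPKM. In contrast CBX5, which encodes the heterochromatin protein HP1 alpha, had 46.1, 46.1 and 54.7 FPKM in control and 9.49, 12.3 and 15.96 FPKM in bufotalin (3.89-fold lower, -1.90, SE 0.17).

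TASOR, a subunit of the HUSH silencing complex, fell from 29.2 ± 0.581 to 17.3 ± 0.966 FPKM and the methyltransferase gene EHMT2 from 22.4 ± 3.99 to 11.9 ± 2.16 FPKM. UHRF1 had 0.30 and HDAC2 0.08, neither called, though UHRF1 was called with equal medians (0.48) or when bufotalin replicate 1 was left out (0.47). SETDB1, DNMT1 and the remaining genes of this list were not in the table, where FAM208A, an older symbol of TASOR, is not counted as a gene of its own.

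The names of other C2H2 families (ZFP, ZBTB, KLF, SP, PRDM, ZIC, GLI, GLIS, EGR, IKZF and SALL) matched 47 listed genes. Among them is ZFP36L2, called higher, which is not a C2H2 gene. Of 43 tested, 22 rose and 18 fell, beside 44.3% and 48.8% of all tested genes. Their median log2 fold change was 0.31, close to the 0.34 of all tested ZNF, ZSCAN and ZKSCAN members. ZBTB40 rose from 6.57 ± 0.693 to 22.3 ± 3.71 FPKM and ZBTB43 from 5.53 ± 0.289 to 17.5 ± 1.26 FPKM. ZFP90, a KRAB gene, fell from 5.25 ± 0.951 to 0.675 ± 0.162 FPKM, SALL4, an oncofetal factor of liver tumours, from 4.12 ± 0.706 to 0.961 ± 0.130 FPKM, and ZBTB4 from 18.5 ± 0.378 to 8.09 ± 0.986 FPKM. EGR1, an immediate early gene, fell from 4.92 ± 0.611 to 0.714 ± 0.286 FPKM. ZFP30, which overlaps the locus of ZNF540 on chromosome 19, rose from 6.97 ± 1.06 to 14.1 ± 2.49 FPKM. ZNF540 had 0.56 without passing (adjusted p = 0.0514 by limma).

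The authors' lncRNA table of 536 transcripts gave a second readout of zinc finger loci, with 4 noncoding transcripts. The ZNF337-AS1 transcript had 0.586, 0.423 and 0.566 FPKM in control and was listed at 0 in bufotalin replicates 1 and 2 and at 0.0120 FPKM in replicate 3 (log2 fold change -2.58, SE 0.22). That of ZNF426-DT, of chromosome 19, had 0.265, 0.242 and 0.250 FPKM in control and was listed at 0 in all treated libraries (-1.82, SE 0.18). These 2 fell by limma on log2(FPKM + 0.1), where 73.3% of 465 tested transcripts were called, and neither has its namesake gene in the mRNA table.

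A noncoding transcript of the ZNF598 locus (chromosome 16, 1997655 to 2009795), had 0.0370, 0.109 and 0.108 FPKM in control and 6.82, 0.554 and 2.38 FPKM in bufotalin (3.63, SE 0.89, adjusted p = 0.0121 by limma). All treated libraries were higher, with a wide spread among them, and their order differed from that of the gene's own values. That of ZNF518A was at 0.000112 to 0.00103 FPKM in control and at 0.167, 0.0146 and 0.560 FPKM in bufotalin, and was not called (1.44, adjusted p = 0.0888).

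The 10 members under 0.5 FPKM were too low to test. Of them ZNF25, ZNF396, ZNF506, ZNF792 and ZNF467 were lower in every treated library than in any control, ZNF404, ZNF347, ZNF844 and ZNF662 were higher, and ZNF816-ZNF321P overlapped. ZNF25 had 0.624 to 0.690 FPKM in control and 0.0790 to 0.107 FPKM in bufotalin. Over all 119 members the groups did not overlap in 100, 52 higher and 48 lower, against 92.4% of all listed genes, 40.7% higher and 51.7% lower. On chromosome 19 these were 30 higher and 10 lower of 49, and elsewhere 22 and 38 of 70.

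Marker genes of other cell types, and mitochondrial genes, also differed between the groups, and their part in the results above was not tested. In bulk xenograft samples it cannot be told whether these reads came from the tumour line itself or from cells of the host. Fewer cells of a type and less RNA per cell cannot be told apart either. Of 12 fibroblast markers 8 were listed and all 7 tested fell, where 48.8% of all tested genes fell. The summed level of these markers was 84.2 to 88.7 FPKM in control and 23.9 to 29.8 FPKM in bufotalin. Of 6 endothelial markers 2 were listed (32.2 to 33.7 against 8.46 to 10.6 FPKM in sum), where EGFL7 fell and CDH5 rose. Of 6 leukocyte markers 2 were listed (3.16 to 3.45 against 3.97 to 6.09 FPKM), where CSF1R rose and ITGAM was at 0 in all treated libraries. HBB, the one erythroid marker listed, was at 13.4 FPKM in control replicate 3 and at most 0.552 FPKM elsewhere. Of 6 mitochondrially encoded genes 3 were listed (2298 to 5067 against 919 to 1907 FPKM), and MT-CO1 fell. The label of the cell line was not checked on liver markers here.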

How the data were processed

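Total RNA of 3 control and 3 bufotalin samples was used. The authors deposited FPKM values per gene (mRNA) and per transcript (lncRNA) for features they selected. The submitters' processing notes name CASAVA 1.8, fastp, HISAT2 2.0.5, featureCounts 1.5.0-p3, DESeq2 1.20.0 and GRCh38, without roles. Not given in the sources used here are the selection rule, strandedness and depth, so no counting interval could be computed. The deposited small RNA values were not used.

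limma 3.58.1 (trended, robust eBayes, R 4.3.3) was fitted to log2(FPKM + 1) over all genes whose mean reached 0.5 FPKM, and to log2(FPKM + 0.1) for transcripts whose mean reached 0.1 FPKM, two-sided. The fit was tested on simulated data in which most genes did not differ. In the selected table most genes were called, so that check does not carry over to these calls. Folds are ratios of mean FPKM, and log2 fold changes understate low genes. Loci are as the files give them. All 119 identifiers matched the gene name table. Protein sequences were not used. Python 3.11.15, pandas 2.3.3, numpy 2.4.6 and matplotlib 3.10.9 were also used.

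Members and lists were chosen with earlier results of these data known. Named genes were the 10 largest called rises and falls whose mean reached 1 FPKM and whose groups did not overlap, the 6 most abundant members, 2 per chromosome 19 group of at least 5, up to 6 per list by p, and all ZSCAN and ZKSCAN genes. Other genes in the text were picked with their values in view. Alternatives were pseudocount 0.1, other FPKM minimums, equal medians, quantile normalization, limma without trend, the replicate block and each library left out.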

Additional observations from a re-analysis of the deposited data

How the results depend on the processing

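Under pseudocount 0.1, equal medians, limma without trend and a minimum mean of 1 FPKM every called member that was tested kept its call. With no FPKM minimum 2 of 96 calls were lost, and under quantile normalization 22, with 1 of these changing sign. Over the single libraries left out, 4 to 11 calls were lost, and 63 of 96 called members kept their call in every alternative in which they were tested.

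Called members were 53 higher and 43 lower. Quantile normalization gave 23 lower (1 on chromosome 19 and 22 elsewhere), and calls at least 2-fold apart gave 15 higher (12 and 3) and, over the whole table, 447 higher. The median log2 fold change of all members (0.34) was 0.48 with equal medians and 0.49 under quantile normalization. That of chromosome 19 members (0.52) was 0.67, 0.99 and, with pseudocount 0.1, 0.65. That of members elsewhere (-0.65) was -0.54, -0.054 and -0.89, and -0.58 with a minimum of 1 FPKM. Leaving out single libraries gave 0.28 to 0.39 for all members, 0.44 to 0.53 on chromosome 19 and -0.68 to -0.53 elsewhere. The median of all genes (0.13) was 0.31 with equal medians, 0.052 under quantile normalization, 0.25 with a minimum of 1 FPKM and -0.14 with none, and -0.27 to 0.18 with single libraries left out, below 0 without bufotalin replicate 1, 2 or 3. Without single libraries 25 to 30 members rose and 8 to 9 fell on chromosome 19, and 19 to 22 and 33 to 35 elsewhere.

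ZNF451 had 0.065 with equal medians, against -0.12. The ZNF518A transcript was called with pseudocount 0.01 (3.67) and without bufotalin replicate 2. Joining neighbours at most 0.5 Mb apart gave 17 groups on chromosome 19 in place of 16, with the 3 runs unchanged. With the replicate number as a block 50 members were called higher and 45 lower, 4 calls were lost, and ZNF598 was called (limma adjusted p = 0.0494). The same-numbered libraries share only a number: the correlations of their deviations over genes were -0.02, 0.03 and -0.05.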
